A study of Mus musculus with 2 samples.

Results

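Axon guidance ligands and receptors were measured in forebrain of the mouse embryo. They were taken as the protein-coding genes of the GENCODE M21 annotation whose symbols belong to the Eph, ephrin, semaphorin, plexin, neuropilin, Slit, Robo, netrin, Dcc, Unc5 or Draxin families. Of 69 genes with such symbols, 68 were matched by gene identifier in the tables of both libraries, among 21474 protein-coding genes and 43346 annotated genes in all. The exception, Ntn3, was not analysed here. There were 35 ligands and 33 receptors.

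The series comprised 1 group of 2 total RNA-seq libraries from forebrain of B6NCrl strain embryos at embryonic day 11.5. Per the labels, the animals were healthy, no treatment or genetic change is named, and each library came from its own pool of embryos of both sexes, 109 embryos for biological replicate 1 and 88 for biological replicate 2. Forebrain at this age holds the telencephalon and diencephalon, whose walls are mostly dividing progenitors with the earliest neurons at their outer edge. With a single group there was no comparison between conditions. The report therefore gives levels, their order and the difference between the 2 pools, and each ± is an SD over 2 libraries.

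These proteins steer growing axons and migrating cells. Eph receptors are receptor tyrosine kinases bound by ephrins on the neighbouring cell, and ephrins can signal in return. Semaphorins act through plexins, with neuropilins as co-receptors for most secreted forms, Slits repel through Robo receptors, and netrins attract through Dcc or repel through Unc5 receptors. Many also act outside axons, in vessel growth, tissue boundaries and the control of progenitors.

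The libraries held 23165223 and 33597022 expected counts on annotated genes, of which guidance genes took 0.321% and 0.325%. Levels are given as TPM, a share of all transcripts in which reads are divided by transcript length, so that genes can be compared with each other. Spike-in RNAs of known origin took 13.0% and 12.7% of all TPM. Marker genes of the labelled tissue were looked up. All 10 telencephalon markers and all 8 diencephalon markers reached 1 TPM in both libraries, and none of 10 HOX genes of the hindbrain and trunk did. All 12 endothelial markers and all 12 mesenchyme and meninges markers reached this bar too, so it shows presence and not the share of a tissue.

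Guidance genes were widely expressed. A level of 1 TPM or more in both libraries, called detected here, was reached by 59 of 68 members (86.8%), against 58.6% of protein-coding genes. Detected members comprised 31 of 35 ligands and 28 of 33 receptors. A mean of 10 TPM or more was reached by 35 members (51.5%), made up of 21 receptors and 14 ligands, against 40.2% of protein-coding genes. The median log2(TPM + 1) was 3.57 ± 0.0921 over members and 2.30 ± 0.0207 over protein-coding genes (n = 2 libraries). In whole tissue, fewer cells of a type and less RNA per cell cannot be told apart.

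**Figure D1:**
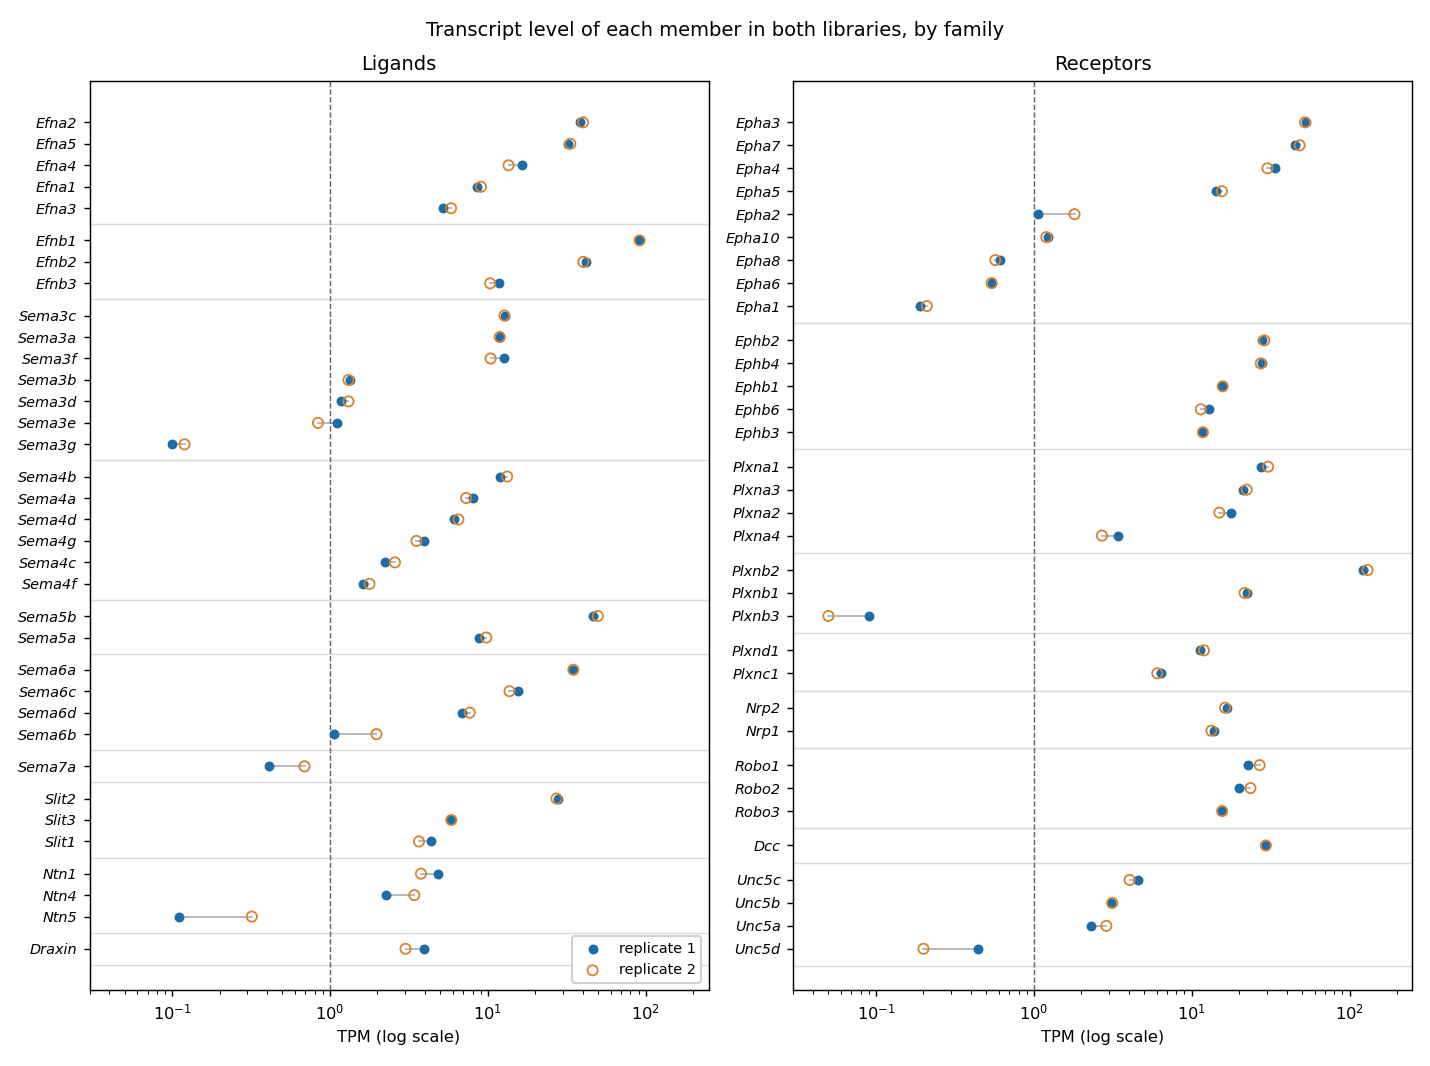
TPM of each of the 68 guidance genes on a log scale, ligands on the left and receptors on the right, grouped by family, with a filled point for replicate 1 and an open ring for replicate 2. The dashed line marks 1 TPM, the points of most genes nearly coincide, and Plxnb2 (122 and 130 TPM) stands farthest right while Plxnb3 (0.09 and 0.05 TPM) stands farthest left.

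A few genes carried much of the signal. Plxnb2 (ENSMUSG00000036606.12, chr15:89155549-89180788, minus strand of GRCm38), a plexin known for its part in neural tube closure, had the highest level at 122 TPM in replicate 1 and 130 TPM in replicate 2. Efnb1 (ENSMUSG00000031217.8, chrX:99136130-99148991, plus strand), a transmembrane ephrin, followed at 90.6 and 91.4 TPM. The third was Epha3 (ENSMUSG00000052504.6, chr16:63543534-63864175, minus strand), a receptor of ephrin-A ligands, at 53.1 and 52.2 TPM. The ranges of these 3 genes did not overlap, so their order held in both pools. The 10 highest members together held 49.4% of the summed member TPM in replicate 1 and 49.8% in replicate 2. Below the third gene the order was less firm: of the 34 neighbouring pairs among the 35 members at 10 TPM or more, 20 had ranges that overlapped between the libraries.

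Receptors stood above ligands by the median gene. The median log2(TPM + 1) was 3.96 ± 0.0511 over 33 receptors and 3.01 ± 0.0556 over 35 ligands (n = 2). The difference, receptors minus ligands, was 0.95 in each library, with a mean of 0.95 ± 0.0045. With means over genes in place of medians it was 0.38. Summed TPM was 606 and 621 for receptors and 482 and 483 for ligands, a ratio of 1.26 in replicate 1 and 1.29 in replicate 2. Receptors were thus higher in both pools by the median and by summed TPM. The higher sum rested largely on Plxnb2, which at 122 and 130 TPM was nearly as large as the gap between the sums. No p is given, because an exact two-sided sign permutation over 2 libraries cannot go below 0.5.

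**Figure D2:**
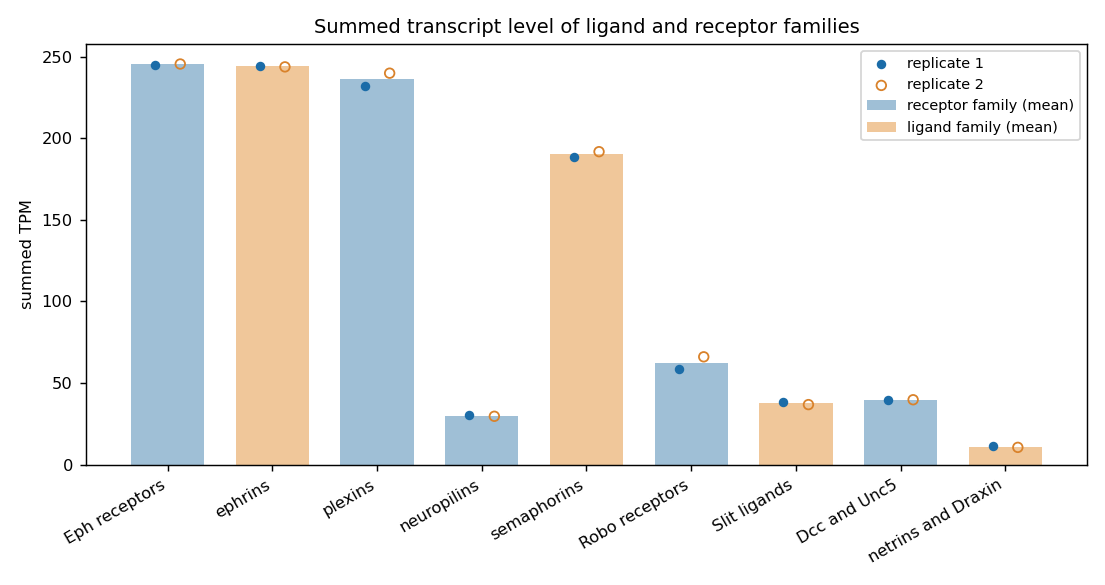
Summed TPM of receptor families (blue bars) and of their ligand families (orange bars), as the mean of 2 libraries, with replicate 1 as a filled point and replicate 2 as an open ring. Eph receptors and ephrins are near 245 TPM each, whereas Dcc and Unc5 together (39.9 and 39.7 TPM) stand well above netrins with Draxin (11.1 and 10.5 TPM).

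By summed TPM, Eph receptors and ephrins were nearly equal, but this balance depended on how levels were summed. Eph receptors summed to 245 and 246 TPM and ephrins to 245 and 244 TPM, a ratio of 1.00 ± 0.0035 (n = 2). The ratio was 1.57 on expected counts, 0.895 without members that overlap a gene on the opposite strand, and 0.825 on transcripts annotated as protein-coding. All 8 ephrins and 11 of 14 Eph receptors were detected. Within the system the subfamilies leaned in opposite directions: EphA exceeded EphB receptors 1.57 ± 0.0114 times, whereas ephrin-A was 0.708 ± 0.0122 of ephrin-B. Of the EphB receptors, Ephb1 and Ephb4 overlap genes on the opposite strand, and the EphA to EphB ratio was 2.84 when members with such an overlap were left out.

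Among EphA receptors, 4 genes held nearly all of the signal. Epha7, a receptor tyrosine kinase of cortical progenitors and map formation, was at 45.3 and 48.2 TPM. Epha4, which binds both ephrin classes and acts in corticospinal and thalamic axons, was at 33.5 and 30.2 TPM. The fourth, Epha5, was at 14.2 and 15.5 TPM, below the other 3 in both libraries. The remaining EphA genes were far lower. Epha2 and Epha10, whose product lacks kinase activity, lay between 1.06 and 1.81 TPM, and Epha8 (mean 0.59 TPM), Epha6 (0.54) and Epha1 (0.20) were not detected.

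EphB receptors were more even, with all 5 above 10 TPM. Ephb2, a receptor of ephrin-B ligands in commissural axons, was at 27.96 and 28.8 TPM. Ephb4, known for its pairing with ephrin-B2 between veins and arteries, was at 27.7 and 27.4 TPM. The levels of Ephb2 and Ephb4 were close but did not overlap. Ephb1, the receptor that turns ventrotemporal retinal axons at the optic chiasm, was at 15.5 and 15.7 TPM. Ephb6, a kinase-inactive member, was at 12.9 and 11.4 TPM. Ephb3, which acts with Ephb2 in forebrain commissures, was at 11.5 and 11.8 TPM, within the range of Ephb6.

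Ephrin-B1 led the ephrin-B ligands. Efnb1 alone held 62.9% and 64.4% of ephrin-B TPM. Efnb2, the arterial ephrin that is also made by neural progenitors, was at 41.6 and 40.3 TPM, and Efnb3, a midline cue for corticospinal axons, was at 11.8 and 10.3 TPM. These 3 transmembrane ligands kept well apart in both pools. The ephrin-A ligands, held in the membrane by a lipid anchor, were led by 2 genes. Efna2, a graded cue of topographic maps, was at 38.6 and 40.0 TPM. Efna5, which shapes retinal and thalamocortical maps, was at 31.98 and 33.3 TPM, below Efna2 in both libraries. Efna4 was at 16.4 and 13.5 TPM, and Efna1 and Efna3 lay between 5.22 and 9.04 TPM.

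Plexins formed the largest receptor group of the semaphorin system. Summed TPM was 232 and 240 for plexins, 30.4 and 29.6 for neuropilins and 188 and 192 for semaphorins. Plexins thus exceeded neuropilins 7.88 ± 0.328 times (n = 2) and semaphorins 1.24 ± 0.0131 times. Without members that overlap a gene on the opposite strand, the plexin to semaphorin ratio was 0.970, so that direction turned. That filter took out Plxna1, Plxnb1 and Plxna4 but only Sema4c among semaphorins, so it lowered mainly the plexin sum. Plxnb2, at 122 and 130 TPM, was the largest single part of the plexin total and held 84.5% and 85.7% of plexin-B TPM. Plxnb1, a receptor of Sema4d, was at 22.4 and 21.6 TPM, whereas Plxnb3, a receptor of Sema5a, had 3 and 6 counts and was not detected.

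Plexin-A genes, which carry the signal of neuropilins and bind class 6 semaphorins directly, summed to 69.8 and 70.4 TPM. Plxna1 was at 27.3 and 30.5 TPM. Plxna3, an X-linked partner of Nrp2 in Sema3f signalling, was at 21.3 and 22.3 TPM, and Plxna2, a receptor of Sema6a, was at 17.8 and 14.96 TPM. These 3 kept their order in both libraries, and Plxna4 was lower at 3.40 and 2.70 TPM. Plxnd1, the endothelial receptor of Sema3e, was at 11.4 and 11.95 TPM. Plxnc1, the receptor of Sema7a, was at 6.39 and 6.05 TPM although Sema7a itself was not detected at 0.41 and 0.69 TPM.

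The 2 neuropilins were similar. Nrp2, the co-receptor of Sema3f, was at 16.6 and 16.3 TPM, and Nrp1, the co-receptor of Sema3a and of vascular endothelial growth factor, was at 13.8 and 13.3 TPM. Nrp2 was the higher in both libraries.

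Semaphorins were uneven within each class. Of 20, 17 were detected and 7 reached 10 TPM. Sema5b, a transmembrane semaphorin with thrombospondin repeats, was highest at 46.4 and 49.7 TPM, followed by Sema6a, a plexin-A ligand that also acts as a receptor, at 34.5 and 34.8 TPM. Their levels did not overlap. Sema5a, a close relative of Sema5b, was at 8.73 and 9.77 TPM. In class 6, Sema6c was at 15.5 and 13.7 TPM, Sema6d at 6.85 and 7.68 TPM, and Sema6b at 1.06 and 1.97 TPM.

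Secreted class 3 semaphorins formed a higher and a lower set. Sema3c was at 12.8 and 12.7 TPM, Sema3a, the classic collapsing factor of growth cones, at 11.9 and 11.9 TPM, and Sema3f, which repels through Nrp2, at 12.7 and 10.4 TPM. These 3 differed little, and the range of Sema3f spanned that of Sema3a. Sema3b and Sema3d lay between 1.18 and 1.34 TPM. Sema3e was at 1.11 and 0.84 TPM and Sema3g at 0.10 and 0.12 TPM, so neither passed in both libraries. Neuropilins were 0.753 ± 0.0181 of class 3 semaphorins by summed TPM (n = 2), but the ratio was 1.10 on expected counts, the opposite direction. In class 4, whose members act mainly through plexin-B receptors, all 6 genes were detected and Sema4b was highest at 12.01 and 13.3 TPM. The other class 4 genes lay between 1.61 TPM (Sema4f) and 8.09 TPM (Sema4a). Plexin-B genes exceeded class 4 semaphorins 4.30 ± 0.0509 times.

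Slit ligands were lower than Robo receptors. Slit2, a secreted repellent of the ventral forebrain, was at 27.9 and 27.2 TPM and held 73.2% and 74.1% of Slit TPM, while Slit3 was at 5.84 and 5.87 TPM and Slit1 at 4.39 and 3.66 TPM. Robo1 and Robo2, the main Slit receptors of forebrain axons, were at 22.9 and 26.9 TPM and at 19.9 and 23.6 TPM. Their ranges overlapped each other, and each was higher in replicate 2. Robo3, a divergent family member of commissural neurons, was at 15.6 TPM in both libraries, below Robo1 and Robo2. The Slit to Robo ratio of summed TPM was 0.654 in replicate 1 and 0.556 in replicate 2. It was 0.402 when only transcripts annotated as protein-coding were summed, an alternative chosen after seeing the data.

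Netrins were low beside their receptors. Dcc, the attractive netrin receptor (chr18:71253634-72351069, minus strand), was at 29.5 TPM in both libraries. Ntn1, the secreted attractant of the floor plate and ventral forebrain, was at 4.82 and 3.77 TPM, Ntn4, a netrin of basement membranes, at 2.26 and 3.42 TPM, and Ntn5 at 0.11 and 0.32 TPM. Draxin, a repellent that binds Dcc and netrin, was at 3.95 and 3.01 TPM. The receptors Dcc and Unc5 together exceeded the netrins 5.42 ± 0.181 times by summed TPM (n = 2) and 8.45 times on expected counts. Unc5 receptors, which turn netrin attraction into repulsion, were also low. Unc5c was at 4.57 and 4.04 TPM, and Unc5a and Unc5b lay between 2.29 and 3.14 TPM. Unc5d was not detected at 0.44 and 0.20 TPM. Dcc exceeded the 4 Unc5 genes together 2.85 ± 0.0267 times, and 8.57 times when Unc5a and Unc5c, which overlap genes on the opposite strand, were left out.

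The 2 pools gave nearly the same profile of guidance genes. Ratios of replicate 2 over replicate 1 were taken on expected counts with scaled library sizes over genes with 10 or more counts summed, which included 67 members. Past 2-fold in either direction were 2 members, against 3.91% of protein-coding genes. Unc5d, a netrin receptor, had 59 and 39 counts, a log2 ratio of -1.12 with a 95% counting interval from -1.75 to -0.52. Ntn5 had 2.48 and 10.4 counts, a log2 ratio of 1.54 with an interval from -0.44 to 5.02, which includes no difference. Both were at low depth, and none of the 61 members with 100 or more counts passed 2-fold. At 1000 to 10000 counts the SD of the log2 ratio was 0.129 over 35 members and 0.141 over 7436 protein-coding genes. These ratios compare a pool with a pool, so they have no replicate check and no p.

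**Figure D3:**
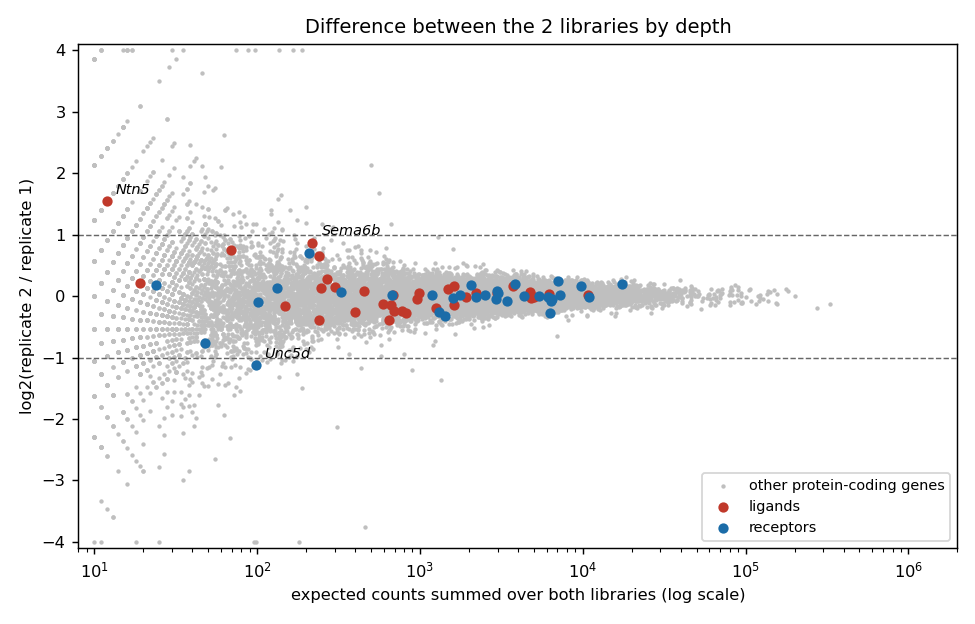
Log2 ratio of replicate 2 over replicate 1 against expected counts summed over both libraries (log scale), for ligands (red), receptors (blue) and other protein-coding genes (grey, with ratios beyond 4 in either direction drawn at the edge). Dashed lines mark 2-fold, Unc5d (-1.12) and Ntn5 (1.54) lie outside them at low counts, and the best covered members lie close to 0.

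The next largest ratios also came from genes with few counts. Sema6b, a class 6 semaphorin, had 60 and 159 counts and a log2 ratio of 0.87 (interval 0.44 to 1.33). Epha6 had 26 and 22 counts and a ratio of -0.76 (-1.66 to 0.11), and Sema7a had 20 and 49 counts and a ratio of 0.74 (-0.01 to 1.59), so that both intervals include no difference. Epha2, a receptor of ephrin-A ligands, had 62 and 146 counts and a ratio of 0.70 (0.27 to 1.16), and Ntn4 had 73 and 166 counts and a ratio of 0.65 (0.25 to 1.07). Among members with 1000 to 10000 counts the largest ratio was that of Plxna4, -0.33 (-0.48 to -0.18), followed by Plxna2 at -0.27 (-0.34 to -0.20). In all, 21 of 67 members had an interval that excluded 0, against 35.7% of protein-coding genes. The intervals cover counting error only, and reads were not described as carrying molecular identifiers.

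Several guidance genes had much of their TPM in transcripts that the annotation does not class as protein-coding, as did other protein-coding genes. Over the 35 members at 10 TPM or more, protein-coding transcripts held a median of 92.7% of gene TPM, against 96.8% over 8634 protein-coding genes at that level. For 3 members (8.57%) the mean share of TPM was below 50%, against 7.85% of those genes. On expected counts the medians were 95.5% over the 35 members and 98.9% over the 8634 genes. Slit2 had 37.0% and 39.8% of its TPM in its main protein-coding transcript Slit2-202, and 44.0% and 42.3% in Slit2-207, a retained-intron form. Plxna3 stood at 45.6% and 42.9% and Sema6c at 44.5% and 50.2% in protein-coding transcripts. These TPM shares were alike in the 2 pools. On expected counts, protein-coding transcripts held 53.8% and 57.6% in Slit2, 83.8% and 79.7% in Plxna3, and 52.5% and 59.3% in Sema6c.

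Plxnb2 shows how such transcripts bear on the order of levels. Its coding transcript Plxnb2-202 was at 58.1 and 69.2 TPM, and Plxnb2-205, a processed transcript of 841 bases, was at 53.0 and 53.0 TPM. Plxnb2-205 held 602 and 869 expected counts, whereas coding transcripts held 89.9% and 91.4% of the gene's counts. In protein-coding TPM, Efnb1 (90.1 and 90.8) ranked above Plxnb2 (61.9 and 71.5). Epha7 had 59.0% and 51.8% of its TPM in protein-coding transcripts, with 34.6% and 35.2% in Epha7-201 and 27.3% and 30.1% in the processed transcript Epha7-208.

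**Figure D4:**
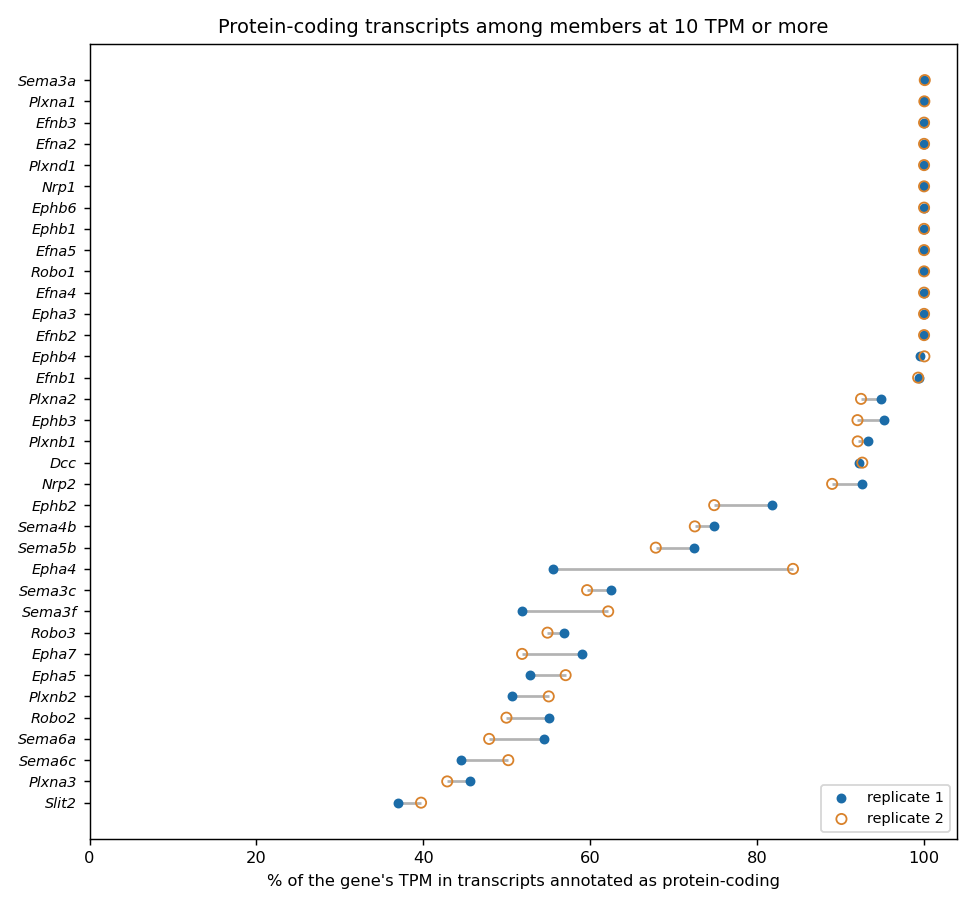
Percent of each gene's TPM in transcripts annotated as protein-coding, for the 35 members at 10 TPM or more, ordered by the mean, with replicate 1 filled and replicate 2 open. Slit2 is lowest at 37.0% and 39.8%, Efnb1 is above 99%, and Epha4 is the gene whose libraries lie farthest apart (55.6% and 84.3%).

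In Epha4, the division between near-identical forms differed between the libraries. Epha4-201 held 46.6% of gene TPM in replicate 1 and 80.6% in replicate 2, and Epha4-205, classed as a target of nonsense-mediated decay, held 29.9% and 3.68%. The exons of Epha4-201 differ from those of Epha4-205 by 9 and 4 bases at the transcript ends, none of them coding. Gene-level TPM of Epha4 was 33.5 and 30.2.

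Ephb2 and Nrp2 each had several main protein-coding forms. In Ephb2, Ephb2-201 held 43.2% and 42.1% of gene TPM and Ephb2-202 held 34.5% and 28.8%. Apart from their ends they differ by 3 coding bases at chr4:136675531-136675533 (GRCm38, minus strand), shown in capitals within the transcript as their sole coding difference.
Ephb2-201: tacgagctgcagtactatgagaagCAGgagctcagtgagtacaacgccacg

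Nrp2 is known for alternative exons near the membrane-spanning part of the protein. Nrp2-204 held 23.5% and 43.4% of gene TPM, Nrp2-203 held 24.5% and 0%, and Nrp2-201 held 22.03% and 25.5%. Nrp2-203 carries 15 coding bases at chr1:62786302-62786316 (plus strand) that Nrp2-204 lacks. The same 15 bases in Nrp2-201 lead into a different last exon. They are printed to show the junctions on which the forms turn, with the 15 bases in capitals and the Nrp2-204 junction in lower case.
Nrp2-204: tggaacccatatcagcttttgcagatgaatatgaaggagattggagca
Nrp2-203: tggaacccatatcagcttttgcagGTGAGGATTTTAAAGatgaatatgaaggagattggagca
Nrp2-201: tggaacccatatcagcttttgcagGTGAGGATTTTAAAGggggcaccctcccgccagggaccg
Nrp2-201, which ends in its own last exon, was at 3.66 and 4.14 TPM, while the split between Nrp2-203 and Nrp2-204 differed between the pools.

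Other members also had more than 1 main form. Ephb1-201 held 67.2% and 65.2% of Ephb1 TPM and Ephb1-202, which lacks 123 coding bases (chr9:101984082-101984204, minus strand), held 26.6% and 26.9%. Dcc-202 held 71.0% and 63.3% of Dcc TPM and Dcc-201 held 21.2% and 29.3%. Sema3a-201 held 55.8% and 63.9% of Sema3a TPM and Sema3a-202 held 35.2% and 27.7%. Both forms of each of these genes were present in both libraries. Epha5 was divided further, into Epha5-205 (29.1% and 24.9%), Epha5-204 (22.8% and 24.5%) and the retained-intron form Epha5-207 (40.6% and 36.1%). Retained-intron forms also took 39.9% and 44.6% of Robo2 TPM (Robo2-209), 25.5% and 26.3% of Robo3 TPM (Robo3-206) and 31.0% and 31.1% of Sema3c TPM (Sema3c-205). The main coding forms Robo3-202 (56.9% and 54.9%) and Sema3c-201 (62.5% and 59.7%) held more than these in both libraries. The coding form Robo2-202 alone (25.2% and 19.4%) held less than Robo2-209. All protein-coding transcripts of Robo2 together held 55.0% and 49.96% of its TPM, more than Robo2-209 in both libraries.

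Counting could mix some members with other genes. Exons of 14 members overlap exons of a gene on the opposite strand, among them Plxna1, Plxnb1, Ephb1, Ephb4 and Efna4. The strand used in counting is not given in the sources used here, so reads of the partners cannot be told apart by strand. Expected counts were fractional for 8 of these members, Plxna1, Plxnb1, Ephb1 and Efna4 among them. The others, Ephb4 among them, had whole counts in both libraries, which gives no sign of reads divided between genes. Among the members without such an overlap, 48 were detected.

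Promoter windows from 250 bases before to 50 bases after the start were found in the RefSeq table (GRCm38.p6) for 58 of 68 members. Where a gene had several windows, only the most upstream was used. It need not lie at the start of the gene as annotated here. For Robo2 it was at chr16:75447244-75447543, outside the gene at chr16:73891839-74411825. The CpG ratio, which is the count of CG pairs over the count that the C and G content gives, was 0.6 or more in 37 of 50 detected members (74.0%) and in 2 of 8 members that were not detected (25%). The same share was 74.9% of 9869 detected protein-coding genes, 12.9% of 6448 protein-coding genes that were not detected, and 36.5% of all 27025 windows. Detected guidance genes thus had CpG-rich starts about as often as other detected genes. To show the range, the 120 bases before the start are printed for high and low genes chosen after their values were seen, 5′ to 3′ on the strand of the gene, with CG pairs in capitals. Plxnb2 (126 TPM on average) lies at chr15:89180789-89180908, minus strand, and Epha3 (52.7 TPM) at chr16:63864176-63864295, minus strand. Epha6 (0.54 TPM) lies at chr16:60605532-60605651, minus strand, and Sema3g (0.11 TPM) at chr14:31217753-31217872, plus strand.
Plxnb2: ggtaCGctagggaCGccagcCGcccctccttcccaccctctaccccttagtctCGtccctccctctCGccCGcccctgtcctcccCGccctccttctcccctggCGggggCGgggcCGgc
Epha3: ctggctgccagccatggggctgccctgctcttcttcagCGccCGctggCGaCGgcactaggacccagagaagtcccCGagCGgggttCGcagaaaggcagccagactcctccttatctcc
Epha6: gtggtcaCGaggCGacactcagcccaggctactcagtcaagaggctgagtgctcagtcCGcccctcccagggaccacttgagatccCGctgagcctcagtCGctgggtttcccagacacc
Sema3g: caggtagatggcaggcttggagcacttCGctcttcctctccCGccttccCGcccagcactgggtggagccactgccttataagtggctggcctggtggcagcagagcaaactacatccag
The printed stretch holds 10 CG pairs in Plxnb2, 7 in Epha3, 5 in Epha6 and 3 in Sema3g. Over the whole windows the CpG ratio was 0.735, 0.676, 0.55 and 0.31 in the same order.

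Short motifs were also searched on both strands of these windows. TATAAA, the core of the TATA box, was found in 2 of 50 detected members (4.0%), in 6.38% of detected protein-coding genes and in 14.2% of all windows. CAGCTG, a form of the E-box, was found in 5 of 50 detected members (10.0%), in 5 of 8 members that were not detected (62.5%), in 14.6% of detected protein-coding genes and in 16.1% of all windows. CAGATG, another E-box form, was found in 2 of 50 detected members (4.0%), in 2 of 8 that were not (25%), in 10.95% of detected protein-coding genes and in 17.3% of all windows. Among the 6448 protein-coding genes that were not detected, TATAAA was found in 22.2%, CAGCTG in 16.3% and CAGATG in 19.9%. TATAAA was found in 0 of the 8 members that were not detected. A match shows only that these letters are in the window, and 8 genes are few.

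The machinery downstream of the receptors was present at high levels. Of 55 cytoplasmic effectors, 53 were detected and none was past 2-fold between the libraries. The highest were Cfl1, the actin-severing protein cofilin, at 2245 and 2084 TPM, Dpysl2, which relays semaphorin signals to microtubules, at 494 and 498 TPM, and the small GTPases Cdc42 (495 and 492 TPM) and Rac1 (290 and 273 TPM). Of 40 other guidance cues and receptors, 39 were detected. Ptprs, a receptor phosphatase bound by proteoglycans, was at 129 and 124 TPM, Gpc1, a glypican that binds Slit, at 110 and 122 TPM, Flrt3, a ligand of Unc5 receptors, at 82.1 and 72.8 TPM, and Ptprf at 70.5 and 75.5 TPM. Dscam, another netrin receptor, was not detected at 0.53 and 0.50 TPM, whereas Neo1, also in this list, was at 23.2 and 22.4 TPM. All 11 enzymes and proteoglycans that act on these proteins were detected, among them Mmp14 (54.3 and 51.9 TPM), Adam10, which cleaves ephrins and their receptors (44.7 and 48.5), and Mmp2 (31.9 and 26.4).

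The tissue held more than neural cells, and some guidance genes are known from vessels and connective tissue, among them Plxnd1, Ephb4, Efnb2 and Nrp1. All 12 endothelial markers were detected, summing to 242 and 232 TPM, with Ramp2 (51.3 and 47.5) and Egfl7 (50.6 and 46.4) highest. All 12 mesenchyme and meninges markers were detected, summing to 748 and 761 TPM, led by Col3a1 (300.01 and 319.7) and Col1a1 (129 and 129). Of 7 pericyte markers 6 were detected (Notch3 21.4 and 20.8, Pdgfrb 15.1 and 17.2), and Cspg4 was at 0.63 and 1.00 TPM. Of 10 microglia and macrophage markers 9 were detected (C1qb 15.5 and 16.7, Fcer1g 14.7 and 14.5), with Trem2 at 0.80 and 0.96 TPM. Of 8 surface ectoderm markers 7 were detected (Krt8 16.5 and 13.9, Epcam 11.5 and 11.95), with Krt5 at 0.53 and 0.45 TPM. Erythroid genes, all 7 detected, summed to 12789 and 13849 TPM, mostly from Hbb-y (8076 and 8726) and Hba-x (2753 and 2807). Neuron markers summed to 1474 and 1365 TPM (Tubb3 506 and 439, Crmp1 211 and 186) and progenitor markers to 2516 and 2557 TPM (Vim 1011 and 1016, Fabp7 471 and 506), with all 12 of each detected. The region markers were led by Lhx2 (154 and 139) and Dlx1 (105 and 93.2) for the telencephalon and by Tcf7l2 (113 and 116) and Fezf1 (30.4 and 28.3) for the diencephalon. Which of these cells made each guidance gene was not tested.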

How the data were processed

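The series comprised 2 libraries of 1 group, with RNA extracted by the mirVana kit and a SMART-seq protocol per the labels' protocols. The input was 10 ng of RNA above 200 nucleotides, and spike-ins were added. The deposited text notes name mm10 and GENCODE M4 as the alignment target. Which aligner and quantifier were used is not given in the sources used here. As deposited by the authors, expected counts are estimates per gene and transcript that can be fractional. The deposited TPM are the authors' length-scaled abundances, over spike-ins as well. The authors' deposited FPKM, scaled by length and depth, served as an alternative.

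Gene names, types and coordinates came from GENCODE M21 on GRCm38, the same build, by stable identifier. Transcript types of M21 were applied to the M4 transcripts, and 2 of 331 member transcripts had no entry. The members and lists were chosen with earlier results of these data known. Detection meant 1 TPM or more in both libraries. For ratios between the libraries, counts were rounded, library sizes were scaled by TMM in edgeR 4.0.16 (R 4.3.3), and a prior of 0.5 counts with exact binomial 95% intervals was used. DESeq2 1.42.0 size factors were tried as well. The ratio was tested on simulated counts with counting error only, with changes planted in genes of 100 or more counts. The 2 members past 2-fold had fewer counts, so that test does not cover them. The labels call the libraries biological replicates.

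Values in both libraries are printed by rule for members at a mean of 10 TPM or more, the highest of each family and those past 2-fold, for the 4 highest genes of pathway lists and the 2 highest of marker lists, and for transcripts with 20% or more of their gene in both libraries where a gene has 2 or more of these. A few list genes under this rule are not reported here. Other members, list genes and transcripts named with values were chosen after their values were seen. Promoter windows were not matched for Dcc, Efnb3, Ntn1, Plxna1, Plxna4, Sema3b, Sema3f, Sema6a, Slit1 and Unc5d. Tables were handled with pandas 2.3.3, numpy 2.4.6 and scipy 1.17.1, and figures were drawn with matplotlib 3.10.9.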

Additional observations from a re-analysis of the deposited data

How the results depend on the processing

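Each library alone gave 59 to 60 detected members, 31 to 32 ligands and 28 receptors, a receptor minus ligand median of 0.945 to 0.951, and summed TPM ratios of 1.26 to 1.29 (receptor to ligand), 1.57 to 1.58 (EphA to EphB), 0.699 to 0.716 (ephrin-A to ephrin-B), 7.65 to 8.11 (plexin to neuropilin) and 0.556 to 0.654 (Slit to Robo). The receptor minus ligand median was 0.75 with posterior mean TPM, 0.90 with FPKM, 0.90 without members that overlap a gene on the opposite strand, 1.03 with log2(TPM + 0.1), 0.79 over detected members, 0.38 as a mean and 0.80 with protein-coding transcripts. Posterior mean TPM gave ratios of 1.24 (receptor to ligand) and 1.56 (EphA to EphB). Without the overlapping members the ratios were 1.10 (receptor to ligand), 2.84 (EphA to EphB), 0.5645 (ephrin-A to ephrin-B) and 6.08 (plexin to neuropilin). On expected counts, which weigh long transcripts more, they were 1.85 (receptor to ligand), 1.66 (EphA to EphB), 0.512 (ephrin-A to ephrin-B) and 0.488 (Slit to Robo). Protein-coding transcripts alone, chosen after seeing the data, gave 1.17 (receptor to ligand), 1.27 (EphA to EphB), 5.69 (plexin to neuropilin) and 0.402 (Slit to Robo). Members past 2-fold between the libraries numbered 0 at 100 or more counts and 1 with a prior of 5 counts. None of the alternatives above reversed those ratios or the order of receptors and ligands. For 6 more ratios the alternatives were added after seeing the data, and 3 of these ratios turned. Each library alone gave 1.00 to 1.01 (Eph to ephrin), 1.23 to 1.25 (plexin to semaphorin), 0.741 to 0.766 (neuropilin to class 3 semaphorin), 4.27 to 4.34 (plexin-B to class 4 semaphorin), 5.29 to 5.55 (Dcc and Unc5 to netrin) and 2.83 to 2.87 (Dcc to Unc5). The Eph to ephrin ratio turned to 0.895 without overlapping members and 0.825 with protein-coding transcripts, and was 1.02 with posterior mean TPM and 1.57 on expected counts. The plexin to semaphorin ratio turned to 0.970 without overlapping members, and was 1.16 with posterior mean TPM, 1.70 on expected counts and 1.22 with protein-coding transcripts. The neuropilin to class 3 semaphorin ratio turned to 1.10 on expected counts, and was 0.654 with posterior mean TPM and 0.969 with protein-coding transcripts. Under posterior mean TPM, no overlapping members, expected counts and protein-coding transcripts, in that order, the plexin-B to class 4 semaphorin ratio was 3.71, 3.94, 5.47 and 3.15. The Dcc to Unc5 ratio was 2.44, 8.57, 2.37 and 2.80. The Dcc and Unc5 to netrin ratio was 4.61 without overlapping members, 8.45 on expected counts and 5.03 with protein-coding transcripts. Leaving out overlapping members takes their TPM out of the sums, so those shifts in summed ratios follow from which members were removed. Causes of the other shifts were not tested. No paired analysis was possible because the series has 1 group. With 2 libraries the SD is itself uncertain, and transcript shares of genes with near-identical forms, such as Epha4 and Nrp2, are the least certain values.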

Other observations

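Some members lie within 1 megabase of each other on the same chromosome and still differed in level. Ephb2 (27.96 and 28.8 TPM) and Epha8 (0.61 and 0.57 TPM) lie 93.4 kilobases apart on chromosome 4. On chromosome 9, Sema3f (12.7 and 10.4 TPM) and Sema3b (1.34 and 1.31 TPM) lie 72.3 kilobases apart. On the X chromosome, Plxna3 (21.3 and 22.3 TPM) and Plxnb3 (0.09 and 0.05 TPM) lie 557 kilobases apart. The chromosome 3 group of Efna1 (8.52 and 9.04 TPM), Efna3 (5.22 and 5.85 TPM) and Efna4 (16.4 and 13.5 TPM), with gaps of 32.8 and 10.4 kilobases, was less uneven. Robo1 and Robo2 lie 846 kilobases apart on chromosome 16 and overlapped in level.

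Epha6 had the same TPM in both libraries (0.54) but 26 and 22 counts, a log2 count ratio of -0.76 with an interval from -1.66 to 0.11. The interval, which covers counting error only, includes no difference.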
